A study of Mus musculus with 28 samples.

Results

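Tenm4, Nrk, Ano4, Cadm2 and Trpm3 are 5 genes whose counts in sorted mammary stroma differed between hormone-treated and untreated mice, and they were chosen for that difference. They were found by matching their symbols to the Ensembl gene IDs of the counts with the version dropped, and all 5 matched 1 row each among 50600 gene IDs. The libraries came from 7 female C57BL/6 mice that all carried a Pdgfra-driven Cre and the R26mTmG reporter, in which a cell that expressed Cre, and all its progeny, turn from tdTomato to GFP. From each mouse, GFP+ and tdTomato+ cells were sorted from stroma (CD49f- EpCAM-) and from luminal epithelium (CD49f low EpCAM+), after removal of blood, endothelial and red cells, which gave 28 RNA libraries. The mice were untreated (n = 4) or given 17beta-estradiol and progesterone, E+P (n = 3), so the 8 groups were GFP+ stroma, tdTomato+ stroma, GFP+ luminal cells and tdTomato+ luminal cells, each without and with E+P. The labels give no dose or age. The study's methods give adult tracing mice of 10 to 12 weeks, and, for wild-type mice of 10 to 13 weeks, 14-day pellets of 0.14 mg estradiol with 14 mg progesterone. Because the Cre acts from early development on, GFP marks a history of Pdgfra expression and not its present level.

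Estradiol and progesterone drive side branching and the growth of lobuloalveoli in the adult gland, and their receptors are found in some luminal cells and in stromal cells. The 5 genes encode cell-surface proteins and a kinase that are best known outside the mammary gland. Tenm4 is a teneurin, a large transmembrane adhesion protein whose family binds latrophilins and FLRT proteins on other cells. Cadm2 is an immunoglobulin-type adhesion molecule related to the nectins and known from synapses. Nrk is a kinase of the germinal centre kinase family, known from embryonic muscle and placenta. Ano4 belongs to the anoctamins, which are calcium-activated channels and lipid scramblases, and Trpm3 is a calcium-permeable cation channel that responds to heat and to the neurosteroid pregnenolone sulfate.

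On GRCm38, Tenm4 (ENSMUSG00000048078.16) lies on the plus strand at chr7:96171246-96911093, Nrk (ENSMUSG00000052854.15) on the plus strand at chrX:138914430-139010532, Ano4 (ENSMUSG00000035189.16) on the minus strand at chr10:88948994-89344762, Cadm2 (ENSMUSG00000064115.13) on the minus strand at chr16:66655421-67620908 and Trpm3 (ENSMUSG00000052387.15) on the plus strand at chr19:22139046-22995410. All 5 are protein coding. Apart from Nrk, which spans 96.1 kb, they are among the longest genes: Tenm4 spans 740 kb, Ano4 396 kb, Cadm2 965 kb and Trpm3 856 kb, against a median of 17.6 kb over 21764 protein-coding genes in the counts. Whether the counting used strand is not given in the sources used here. Opposite-strand transcripts share exon bases with Tenm4 (C230038L03Rik, 988 bases, 80 counts over all 28 libraries), with Trpm3 (C330002G04Rik, 351 bases and 44 counts, and Gm27151, 277 bases and 8 counts) and with Cadm2 (1700010K23Rik, 256 bases, 3 counts), and reads there cannot be told apart without strand.

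Since 4 of these genes were higher together with E+P in GFP+ stroma, the 250 bases before an annotated start of each are shown here, read 5′ to 3′ on the gene's own strand. Capitals mark the steroid receptor half-site AGAACA and the Sp1 GC box GGGCGG on either strand. The sequences are RefSeq's on GRCm38.p6: Tenm4 at chr7:96170994-96171243, Nrk at chrX:138914180-138914429, Ano4 at chr10:89257791-89258040, Cadm2 at chr16:67620909-67621158 and Trpm3 at chr19:22138796-22139045.
Tenm4: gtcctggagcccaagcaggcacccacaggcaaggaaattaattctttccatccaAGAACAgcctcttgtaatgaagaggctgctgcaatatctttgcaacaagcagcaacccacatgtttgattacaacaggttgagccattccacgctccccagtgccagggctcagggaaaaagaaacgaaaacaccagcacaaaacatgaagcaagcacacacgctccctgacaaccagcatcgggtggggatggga
Nrk: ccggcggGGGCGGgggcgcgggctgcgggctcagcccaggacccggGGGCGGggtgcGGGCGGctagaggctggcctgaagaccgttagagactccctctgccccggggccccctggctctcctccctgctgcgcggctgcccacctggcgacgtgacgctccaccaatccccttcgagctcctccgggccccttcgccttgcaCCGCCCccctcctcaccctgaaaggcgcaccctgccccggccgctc
Ano4: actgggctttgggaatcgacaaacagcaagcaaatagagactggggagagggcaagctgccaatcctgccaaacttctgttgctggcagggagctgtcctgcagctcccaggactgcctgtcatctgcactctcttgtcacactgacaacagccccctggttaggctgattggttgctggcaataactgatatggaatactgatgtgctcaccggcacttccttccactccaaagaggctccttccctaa
Cadm2: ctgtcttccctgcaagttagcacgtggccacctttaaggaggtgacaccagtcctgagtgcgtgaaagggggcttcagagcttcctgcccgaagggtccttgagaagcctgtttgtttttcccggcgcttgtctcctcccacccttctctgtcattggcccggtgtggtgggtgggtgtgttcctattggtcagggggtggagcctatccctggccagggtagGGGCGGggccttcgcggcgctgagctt
Trpm3: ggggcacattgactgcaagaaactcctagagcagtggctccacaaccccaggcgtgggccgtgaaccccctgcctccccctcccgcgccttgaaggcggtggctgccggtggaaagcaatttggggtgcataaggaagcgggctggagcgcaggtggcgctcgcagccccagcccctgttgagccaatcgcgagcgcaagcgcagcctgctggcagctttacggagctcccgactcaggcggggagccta
The windows have little in common. Nrk's is the most GC-rich (76.4% GC, 24 CpG dinucleotides) and holds 4 GC boxes, Cadm2's (60.8% GC, 10 CpG) holds 1, and the windows of Tenm4 (50.8% GC, 4 CpG), Ano4 (53.2% GC, 2 CpG) and Trpm3 (66.4% GC, 17 CpG) hold none. The half-site AGAACA was found only in Tenm4's window, and 16.1% of the 32851 RefSeq windows of this length hold it, while 32.7% hold the GC box. RefSeq gives 7 windows for the 5 genes, with a further start for Tenm4 and for Trpm3. None of the 7 holds the estrogen response element (GGTCA, 3 bases of any kind, TGACC), which 0.0639% of all windows hold, the progesterone and glucocorticoid response element (GNACA, 3 bases of any kind, TGTNC), held by 0.387%, or the AP-1 site TGANTCA, held by 6.75%, searched on both strands. For Ano4 the RefSeq start lies 86972 bases inside the GENCODE gene, so this window does not stand at the outermost start.

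Library totals ran from 8623383 to 24583803 counts, so 3 counts, used here as the floor, correspond to 0.122 to 0.348 CPM. The size of a fitted E+P fold is not read for a group with all its libraries below the floor. CPM, a count relative to the size of its library, were scaled by TMM over all 28 libraries. Each sort was checked against cell type markers. The 5 fibroblast markers summed to 25462 ± 5546 CPM (SD, n = 4) in untreated and 31848 ± 3265 (n = 3) in E+P GFP+ stroma, to 2313 ± 1209 and 1090 ± 210 in tdTomato+ stroma, and to group means of 17.01 to 45.5 in luminal cells. In tdTomato+ stroma the 5 skeletal muscle markers summed to 6815 ± 4410 and 11929 ± 7041 CPM and the 5 pericyte and smooth muscle markers to 6732 ± 1611 and 5754 ± 381, against at most 11.8 and 94.2 in the group means of GFP+ stroma. tdTomato+ stroma was therefore a mixture by its markers, and in such bulk samples fewer cells of a type and less RNA per cell cannot be told apart. Luminal libraries held 4837 to 7134 CPM of the 5 luminal markers in their group means.

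**Figure D1:**
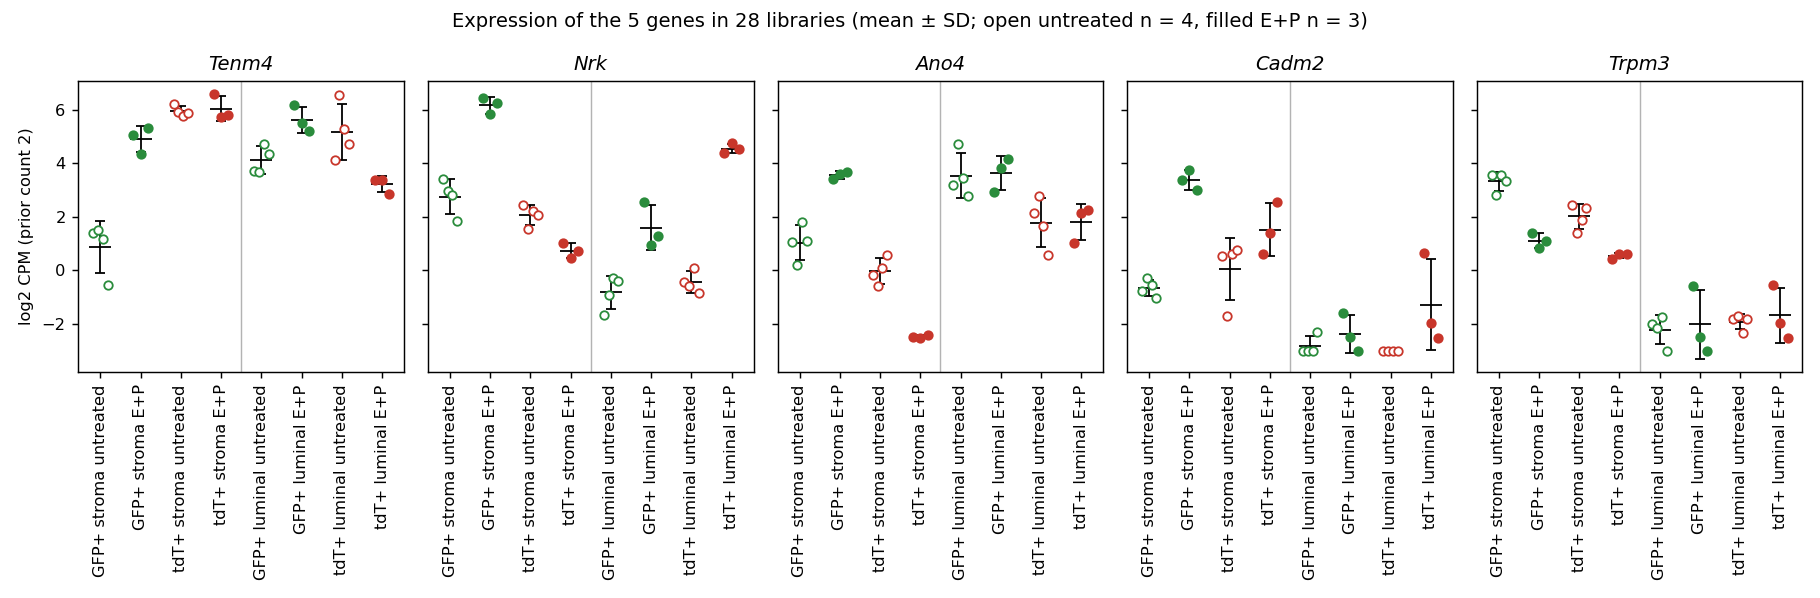
Expression of the 5 genes in each library, as log2 CPM with a prior count of 2, by group (green GFP+, red tdTomato+, written tdT+; open circles untreated, n = 4; filled circles E+P, n = 3; bars mean ± SD; stroma left and luminal cells right of the grey line). In GFP+ stroma all E+P libraries of Tenm4, Nrk, Ano4 and Cadm2 lie above all untreated ones and those of Trpm3 below.

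In GFP+ stroma, which the choice of the genes used, Tenm4, Nrk, Ano4 and Cadm2 were 5.63 to 20.1 times higher and Trpm3 4.89 times lower with E+P in the edgeR fit. These values describe the contrast the genes were chosen for and are given without a test. Over all genes, 41 of 17783 (0.231%) passed an edgeR adjusted p of 0.01 here, and all 5 genes were among them, a count that the choice itself fixes and from which nothing is read. Without untreated replicate 1 or without E+P replicate 2 it was 2.

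Among the adhesion genes, Tenm4 was at 2.498, 2.71, 2.13 and 0.550 CPM in the GFP+ stroma of the 4 untreated mice and at 33.0, 20.5 and 40.1 CPM in the 3 E+P mice. The ranges did not overlap, and the change was 3.96 on the log2 scale (SE 0.36). In tdTomato+ stroma the same gene was already high without hormone, at 73.9, 61.4, 55.2 and 59.3 CPM, and stood at 96.1, 53.5 and 56.5 CPM with E+P. Here the groups overlapped, with the E+P mouse higher in 5 of 12 pairs of mice, and the log2 change was 0.14 (SE 0.31). This value turned to -0.18 without E+P replicate 1, the highest library. So Tenm4 in GFP+ stroma approached, with E+P, the level that tdTomato+ stroma had in either state without reaching its lowest library.

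Cadm2 was near the floor in untreated GFP+ stroma, at 0.454, 0.697, 0.549 and 0.367 CPM, from 4 to 9 counts a library. With E+P it was at 10.4, 13.4 and 7.97 CPM, a log2 change of 4.33 (SE 0.59). In tdTomato+ stroma it was at 1.33, 0.181, 1.39 and 1.55 CPM without and at 1.38, 2.52 and 5.81 CPM with E+P, which gave a log2 change of 1.52 (SE 0.55) with overlapping groups and the E+P mouse higher in 10 of 12 pairs. Without E+P replicate 3, the highest library, it was 0.80. The Schwann and glial markers, 5 genes of which none was at 0 in any stromal group, summed to 17.4 to 23.2 CPM in untreated and 14.4 to 16.7 CPM in E+P GFP+ stroma, and to 9.42 to 21.6 and 4.85 to 12.9 CPM in tdTomato+ stroma. S100b, 1 of the 5, was at 4.14 ± 2.12 CPM without and 5.85 ± 0.984 with E+P in GFP+ stroma. Their part in the values of Cadm2 was not tested.

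The kinase gene Nrk was at 10.5, 7.59, 6.89 and 3.49 CPM in untreated GFP+ stroma and at 87.5, 56.9 and 77.0 CPM with E+P. This was the highest level of Nrk in any group, and the log2 change was 3.38 (SE 0.29). In tdTomato+ stroma it went the other way, from 5.32, 2.80, 4.51 and 4.08 CPM to 1.89, 1.24 and 1.53 CPM. The 3 E+P libraries lay below all 4 untreated ones, with a log2 change of -1.42 (SE 0.33).

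Of the channel genes, Ano4 was at 1.97, 1.01, 3.35 and 2.02 CPM in untreated GFP+ stroma and at 10.5, 12.1 and 12.8 CPM with E+P, a log2 change of 2.49 (SE 0.40) and no overlap. In tdTomato+ stroma 8, 6, 14 and 14 counts in the untreated libraries stood against 1 count in each of the 3 E+P libraries. Each of these E+P libraries lay below the floor, so the size of the fitted fold is not read. Taken over the groups, 42 against 3 counts give a share of all counts that was 17.2 times higher without E+P. This ratio pools the mice of a group, leaves out the spread between them and is a description only. Of the 22 genes that passed adjusted p of 0.01 in tdTomato+ stroma (0.124% of 17783), Ano4 was the 1 member, and since the choice of genes may have used this contrast too, nothing is read from it.

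Trpm3 was the member that was lower with E+P in both stromal subsets. It was at 11.7, 6.97, 11.8 and 9.91 CPM in untreated and at 2.52, 1.64 and 2.02 CPM in E+P GFP+ stroma, a log2 change of -2.29 (SE 0.36). In tdTomato+ stroma it was at 5.32, 2.53, 3.52 and 4.95 CPM without and at 1.22, 1.38 and 1.41 CPM with E+P, a log2 change of -1.60 (SE 0.36). Neither pair of groups overlapped.

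Marker lists of other cells moved in tdTomato+ stroma with Nrk, Ano4 and Trpm3. The fibroblast sum ran from 1089 to 3773 CPM in the untreated and from 887 to 1305 CPM in the E+P libraries, and the sum of the 5 luminal markers from 19.9 to 468 and from 3.18 to 36.9 CPM, with no marker of either list at 0 in a group. Their part in the lower values of these 3 genes was not tested. In GFP+ stroma the fibroblast sums overlapped, at 20419 to 33008 CPM without and 28868 to 35338 CPM with E+P, while the 4 adipocyte markers summed to 34.9 to 148.9 and 14.2 to 31.1 CPM, with 1 of 4 at 0 in the E+P group. The sum of the luminal markers, at 19.1 to 85.4 without and 3.74 to 5.60 CPM with E+P, was also lower in every E+P library of GFP+ stroma. So was that of the 4 endothelial markers, at 187 to 271 and 137.0 to 156 CPM, with no marker of either list at 0. The endothelial sum was mostly Tek, at 190 ± 38.2 CPM without and 90.1 ± 8.07 with E+P. Kdr went the other way, from 29.9 ± 9.69 to 52.3 ± 4.82 CPM. Pecam1 was at 0.897 and 0.758 CPM and Cdh5 at 2.24 and 1.14. The part of these lists in the members' changes was not tested.

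**Figure D2:**
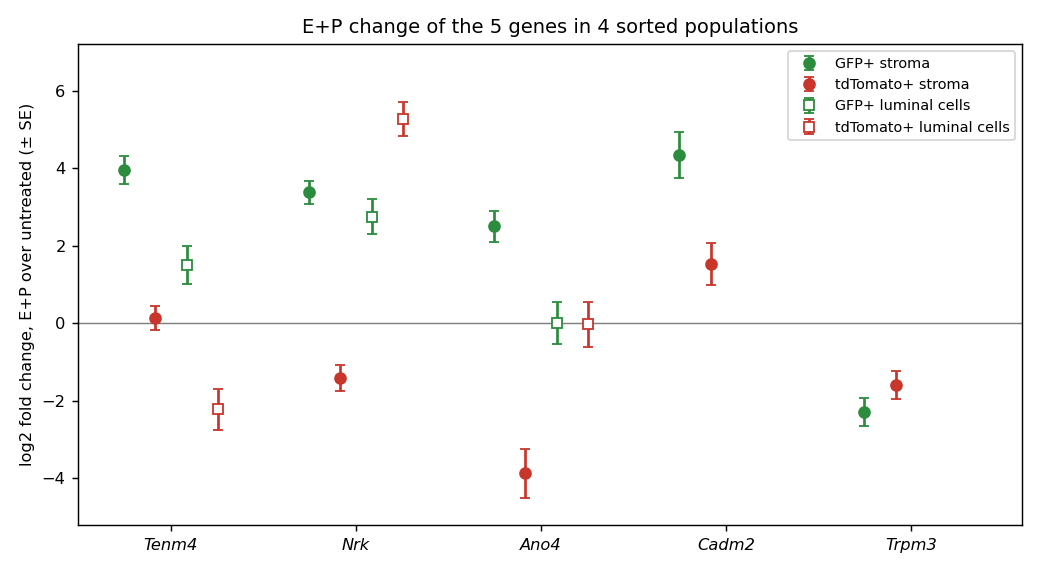
Log2 fold change with E+P over untreated (± SE, edgeR) of the 5 genes in GFP+ stroma (green circles), tdTomato+ stroma (red circles), GFP+ luminal cells (open green squares) and tdTomato+ luminal cells (open red squares), with 3 E+P and 4 untreated mice in each. Nrk lies above 0 in 3 populations and below 0 in tdTomato+ stroma, and Cadm2 and Trpm3 have no luminal value because too few counts were left to fit them. The tdTomato+ stroma point of Ano4 rests on 1 count in each E+P library, below the floor of 3 counts.

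Luminal libraries were not part of the stromal contrasts, so the E+P change was tested there. Nrk rose in both luminal subsets, Tenm4 fell in tdTomato+ luminal cells by a call that rested on the settings of the fit, and Ano4 passed in neither. Of the 3 members with enough counts to be fitted, 1 passed adjusted p of 0.01 in GFP+ luminal cells, where 985 of 16538 genes (5.96%) did, and 2 passed in tdTomato+ luminal cells, where 2327 genes (14.1%) did.

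For Nrk, tdTomato+ luminal cells held 0.619, 0.548, 0.940 and 0.427 CPM without hormone, from 9 to 13 counts a library, and 20.7, 26.8 and 23.1 CPM with E+P. The log2 change was 5.27 (SE 0.43, edgeR adjusted p = 2.8e-06), a 38.5-fold rise, with the E+P mouse higher in 12 of 12 pairs, and it kept its call in all 7 fits that left out 1 mouse. In GFP+ luminal cells Nrk was at 0.190, 0.403, 0.685 and 0.629 CPM without and 5.78, 1.78 and 2.33 CPM with E+P. This rise was smaller, 2.74 on the log2 scale (SE 0.45, adjusted p = 0.0017, higher in 12 of 12 pairs), and without E+P replicate 1, the highest library, it was 2.06 with an adjusted p of 0.012. The call was also lost with limma-voom (adjusted p = 0.013) and in the fit of the 2 groups alone (0.014). The exact two-sided permutation p was 0.0286 in each subset, the smallest that 3 against 4 mice allow. The difference between the subsets' changes, a test added after the values were seen, was -2.53 (SE 0.64) on the log2 scale for GFP+ minus tdTomato+, with an edgeR adjusted p of 0.030, and did not pass 0.01. Without E+P replicate 1 it was -3.27 and passed, with an adjusted p of 0.0083.

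Fibroblast and basal epithelial markers in the luminal libraries were set beside Nrk. Per 1000 CPM of the summed fibroblast markers, E+P GFP+ stroma held 2.32 ± 0.448 CPM of Nrk (n = 3), whereas E+P tdTomato+ luminal cells held 617 ± 192 and E+P GFP+ luminal cells 190 ± 116. In E+P tdTomato+ luminal cells the sum was mostly Dcn, at 35.5 ± 15.0 CPM, with Pdgfra at 4.65 ± 0.422, Col1a1 at 0.696 ± 0.257, Col1a2 at 0.286 ± 0.125 and Lum at 0.106 ± 0.0970. The 4 basal epithelial markers summed to 6.15 ± 1.94 CPM without and 37.9 ± 10.7 with E+P in tdTomato+ luminal cells. In GFP+ luminal cells they summed to 15.8 ± 3.02 and 34.4 ± 8.09 CPM. By gene, in tdTomato+ luminal cells, Trp63 went from 1.15 to 22.2 and Krt17 from 2.56 to 13.2 CPM with E+P. Krt14 was at 1.98 and 2.20 CPM there, and Krt5 at 0.470 and 0.260. The part of other cells in the luminal values of Nrk was not tested.

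Tenm4 moved in opposite directions in the luminal subsets. GFP+ luminal cells held 12.99, 12.8, 26.3 and 20.5 CPM without and 71.8, 45.9 and 37.0 CPM with E+P, so that every E+P library was above every untreated one. The log2 change of 1.498 (SE 0.49) had an edgeR adjusted p of 0.060 and did not pass 0.01, with an exact permutation p of 0.0286, while DESeq2 gave an adjusted p of 0.0080. In tdTomato+ luminal cells the untreated libraries ranged widely, at 17.2, 94.3, 39.2 and 26.2 CPM, and the E+P libraries stood at 10.3, 10.4 and 7.18 CPM, below all of them. The fit gave a fall of 2.22 on the log2 scale (SE 0.53, adjusted p = 0.0095; exact permutation p = 0.057), but of the 7 fits without 1 mouse only that without untreated replicate 1 kept the call, and without untreated replicate 2, the library at 94.3 CPM, the log2 change was -1.54 with an adjusted p of 0.011. With no low-count filter, with limma-voom and in the fit of the 2 groups alone the adjusted p was 0.032, 0.019 and 0.039. The difference between the subsets' changes was 3.72 (SE 0.72) for GFP+ minus tdTomato+, with an edgeR adjusted p of 0.0101, just short of the threshold that 2.27% of genes passed. Without untreated replicate 2 it was 2.90 with an adjusted p of 0.0083, and without any other mouse it did not pass.

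Ano4 varied more between mice than with hormone in luminal cells. It was at 9.06, 26.3, 10.9 and 6.68 CPM without and 7.54, 14.2 and 17.8 CPM with E+P in GFP+ cells, and at 4.23, 6.69, 3.04 and 1.36 CPM without and 1.92, 4.23 and 4.66 CPM with E+P in tdTomato+ cells. The log2 changes were 0.00 (SE 0.54, edgeR adjusted p = 0.998) and -0.03 (SE 0.57, adjusted p = 0.975), and their sign depended on the setting.

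Cadm2 and Trpm3 had few counts in luminal cells. Trpm3 had 0 to 8 counts in each of the 14 luminal libraries, and Cadm2 had 1 count in the 4 untreated and 4 counts in the 3 E+P libraries of GFP+ cells. For tdTomato+ luminal cells Cadm2 had no count in any of the 4 untreated libraries and 18, 3 and 1 counts in the E+P libraries. E+P replicate 1 was the only one of these above the floor of 3 counts, so no fold is given. The fibroblast markers in those 3 libraries summed to 26.8, 39.7 and 57.3 CPM, lowest in replicate 1, as was the adipocyte sum. Other lists were highest in replicate 1. The haematopoietic markers summed to 7.69, 1.62 and 0.856 CPM and the basal epithelial markers to 50.2, 31.6 and 31.8 CPM. The luminal, endothelial and pericyte sums were also highest there, and the skeletal muscle and Schwann sums lay in between. The part of other cells in these Cadm2 counts was not tested.

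**Figure D3:**
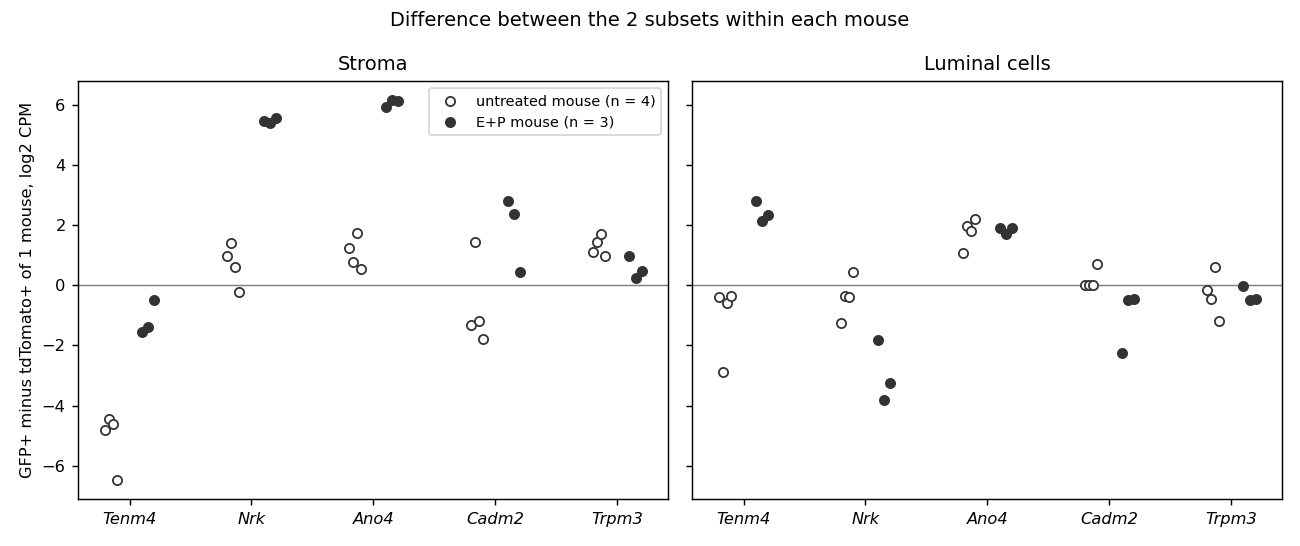
Difference between the GFP+ and the tdTomato+ library of the same mouse in log2 CPM, for stroma (left) and luminal cells (right); open circles are the 4 untreated and filled circles the 3 E+P mice. Tenm4 in stroma lies below 0 in all 7 mice, and in luminal cells below 0 in the 4 untreated and above 0 in the 3 E+P mice.

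The subsets of a mouse differed for most members. In stroma this comparison uses the libraries on which the genes were chosen, so it is described without a p. Of all genes 41.9% passed an adjusted p of 0.01 in it, and 4 of 5 members did, from which nothing is read. Tenm4 was lower in the GFP+ cells of all 7 mice, by 3.34 on the log2 scale (SE 0.25), with differences within a mouse of -6.46 to -4.44 among the untreated and -1.54 to -0.49 among the E+P mice. Tenm4 in tdTomato+ stroma stood beside skeletal muscle markers of 2265 to 11211 CPM in the untreated and 5742 to 19591 CPM in the E+P libraries. Pericyte and smooth muscle markers there were at 5251 to 8523 and 5391 to 6151 CPM. None of the 5 markers of either list was at 0, and the part of these lists in the level of Tenm4 was not tested.

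Nrk and Ano4 were higher in GFP+ stroma, by 2.81 (SE 0.22) and 3.93 (SE 0.36) over all 7 mice. Within a mouse the differences in the E+P mice, whose GFP+ libraries had the values the genes were chosen for, were 5.39 to 5.55 for Nrk and 5.92 to 6.15 for Ano4, against -0.22 to 1.40 and 0.53 to 1.72 in the untreated mice. For Ano4 each tdTomato+ library of those E+P mice held 1 count, below the floor. Trpm3 was higher by 0.99 (SE 0.24) and in all 7 mice. The fibroblast markers differ in the same direction between these subsets, and per 1000 CPM of them untreated tdTomato+ stroma held more of each, at 2.06 ± 0.654 against 0.285 ± 0.121 CPM for Nrk, 0.467 ± 0.282 against 0.0792 ± 0.0226 for Ano4 and 2.07 ± 0.908 against 0.397 ± 0.0554 for Trpm3 (n = 4 each). With E+P the order was the other way for Nrk, at 1.44 ± 0.292 CPM in tdTomato+ against 2.32 ± 0.448 in GFP+ stroma, and for Ano4, at 0.0500 ± 0.00499 against 0.376 ± 0.0741, but not for Trpm3, at 1.26 ± 0.263 against 0.0644 ± 0.0106 (n = 3 each). Cadm2 differed by 0.09 (SE 0.44), higher in 4 of 7 mice.

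In luminal cells 2 of the 3 members fitted passed, where 34.0% of genes did. Ano4 was higher in the GFP+ cells of all 7 mice, by 1.79 (SE 0.40, edgeR adjusted p = 0.0025), a call lost without E+P replicate 2 (adjusted p = 0.011) or with no low-count filter (0.012). The differences were of like size in untreated (1.08 to 2.20) and E+P mice (1.71 to 1.91). Nrk was lower in GFP+ cells, by 1.45 (SE 0.33, adjusted p = 0.0022), in 6 of 7 mice, and the call was lost without E+P replicate 2 or 3 (adjusted p = 0.029 and 0.033). Tenm4 averaged to 0.31 (SE 0.35, adjusted p = 0.498), since its differences of -2.87 to -0.35 in the untreated and 2.13 to 2.78 in the E+P mice had opposite signs. Without untreated replicate 2 it was 0.98 with an edgeR adjusted p of 0.0085.

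Between stroma and luminal cells of the same mice, Trpm3, Cadm2 and Nrk were higher in stroma and Ano4 was higher in luminal cells. This comparison too uses the stromal libraries that chose the genes and is described without a p. Trpm3 differed by 4.52 (SE 0.36), Cadm2 by 5.38 (SE 0.59) and Nrk by 2.02 (SE 0.20) on the log2 scale, each in 7 of 7 mice. Ano4 was lower in stroma by 2.65 (SE 0.28), also in 7 of 7 mice, and Tenm4 differed by -0.30 (SE 0.22), lower in stroma in 4 of 7 mice. Of all genes tested 63.7% were called here, and 4 of 5 members. As a name for all 5, stromal genes goes against these levels: Ano4 had its highest mean in luminal cells and Nrk its second highest in E+P tdTomato+ luminal cells.

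The order of the 8 groups differed for each gene. Tenm4 was highest in E+P tdTomato+ stroma, at 68.7 ± 23.8 CPM, followed by untreated tdTomato+ stroma (62.4 ± 8.07), E+P GFP+ luminal (51.6 ± 18.05), untreated tdTomato+ luminal (44.2 ± 34.6), E+P GFP+ stroma (31.2 ± 9.93) and untreated GFP+ luminal cells (18.2 ± 6.53). Each of these overlapped the next, and only E+P tdTomato+ luminal cells (9.30 ± 1.84) and untreated GFP+ stroma (1.97 ± 0.978) stood apart below. For Nrk, E+P GFP+ stroma (73.8 ± 15.6 CPM) and E+P tdTomato+ luminal cells (23.5 ± 3.05) stood apart from each other and from all else, untreated GFP+ stroma (7.12 ± 2.89), untreated tdTomato+ stroma (4.18 ± 1.05), E+P GFP+ luminal cells (3.29 ± 2.17) and E+P tdTomato+ stroma (1.55 ± 0.327) overlapped in turn, and untreated luminal cells lay below (0.633 ± 0.219 tdTomato+ and 0.477 ± 0.227 GFP+).

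Ano4 was highest in 3 groups that overlapped, untreated GFP+ luminal (13.2 ± 8.87 CPM), E+P GFP+ luminal (13.2 ± 5.20) and E+P GFP+ stroma (11.8 ± 1.20). The next 4 overlapped in turn from tdTomato+ luminal cells (3.83 ± 2.24 untreated, 3.60 ± 1.47 E+P) through untreated GFP+ stroma (2.09 ± 0.964) to untreated tdTomato+ stroma (0.898 ± 0.346), and E+P tdTomato+ stroma stood apart below. Cadm2 was highest, and apart, in E+P GFP+ stroma (10.6 ± 2.70 CPM), above tdTomato+ stroma with (3.24 ± 2.30) and without E+P (1.11 ± 0.630). Trpm3 had 4 stromal levels without overlap, at 10.1 ± 2.25, 4.08 ± 1.29, 2.06 ± 0.441 and 1.34 ± 0.0991 CPM, in the order untreated GFP+, untreated tdTomato+, E+P GFP+ and E+P tdTomato+ stroma.

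Per length, as CPM per kb of merged exons (RPKM), Nrk was the most abundant of the 5 in GFP+ stroma in both states, at 0.773 ± 0.314 RPKM without and 8.01 ± 1.69 with E+P. Trpm3 came second without hormone (0.413 ± 0.0921) and last with it (0.0842 ± 0.0180), when Ano4 (1.62 ± 0.165), Tenm4 (1.48 ± 0.473) and Cadm2 (1.08 ± 0.275) were at like levels. In tdTomato+ stroma Tenm4 led, at 2.97 ± 0.384 and 3.27 ± 1.13 RPKM. Merged exons hold all annotated isoforms, so these levels are low for a gene that uses few of them.

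Of 29 relatives of the members tested in GFP+ stroma, from lists given by family, 2 passed, beside 0.231% of all genes. The lists too were chosen with earlier results of these data known. Nothing is therefore read from this count, and the adjusted p of list genes in stroma are a description. None of 9 teneurin partners and paralogs (Tenm1 to Tenm3, the latrophilins Adgrl1 to Adgrl3 and Flrt1 to Flrt3), 3 kinases related to Nrk, 6 anoctamins and 4 TRPM channels tested passed adjusted p of 0.01, with medians of 0.26, 0.11, -0.07 and 0.27 on the log2 scale against 0.00 over all genes. Of 7 Cadm and nectin genes, Cadm1 rose from 1.79 ± 1.10 to 13.9 ± 1.73 CPM (log2 change 2.97, SE 0.48, edgeR adjusted p = 0.0050) and Cadm3 fell from 104.6 ± 15.0 to 46.3 ± 1.86 CPM (log2 change -1.17, SE 0.17, adjusted p = 0.0028). Among 8 steroid receptors and hormone targets, Greb1, an estrogen-induced gene, rose by 3.56 (SE 0.45, adjusted p = 0.0037) and Esr1, the estrogen receptor, fell by 1.74 (SE 0.19, adjusted p = 0.00014). In the tdTomato+ stroma the 1 call over all 6 lists was Esr1, which fell by 1.18 (SE 0.19, adjusted p = 0.0081).

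**Figure D4:**
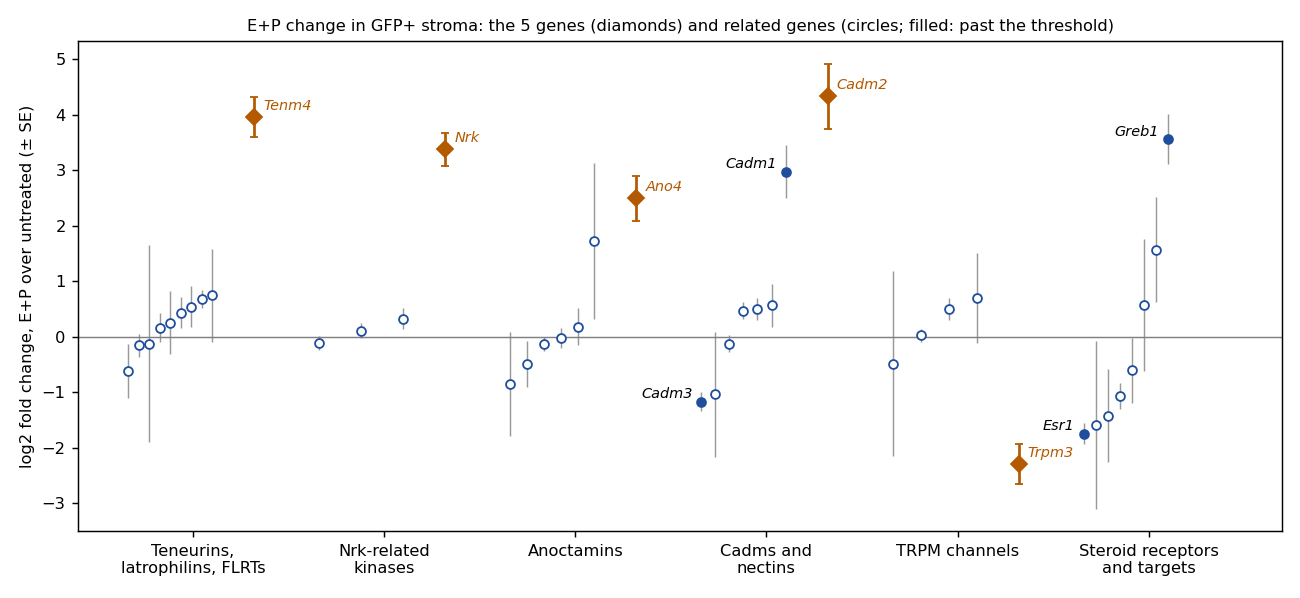
Log2 fold change with E+P over untreated in GFP+ stroma (± SE, edgeR, 3 against 4 mice) of the 5 genes (orange diamonds) beside the tested genes of their families and of a list of steroid receptors and hormone targets (blue circles, filled where the adjusted p was under 0.01). Cadm1, Cadm3, Greb1 and Esr1 are the 4 filled circles, and the members were chosen on this axis.

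In tdTomato+ luminal cells 5 of 27 relatives passed, beside 14.1% of all genes, so the count is read as no result about the families. Tenm1 rose by 2.07 (SE 0.44, edgeR adjusted p = 0.0043) from 8.93 ± 4.30 to 36.9 ± 13.6 CPM while Tenm4 was lower. Of Nrk's relatives, Map4k4 rose by 0.86 (SE 0.12, adjusted p = 0.00026) and Mink1 fell by 0.53 (SE 0.11, adjusted p = 0.0028). Nectin1 fell by 1.20 (SE 0.13, adjusted p = 3.7e-05) and Trpm6 fell by 1.59 (SE 0.35, adjusted p = 0.0054), 1 each of 6 Cadm and nectin genes and of 4 TRPM channels tested, and none of 7 anoctamins passed. The hormone targets Tnfsf11 (RANKL, the cytokine that carries the progesterone signal to neighbouring cells) and Greb1 rose in the same libraries as Nrk, from 0.374 ± 0.445 to 127.1 ± 13.2 CPM (adjusted p = 0.00021) and from 21.2 ± 18.9 to 610.0 ± 220.1 CPM (adjusted p = 0.0017). They were the 2 of 8 steroid receptors and hormone targets that passed. Areg, Wnt4 and Pgr, with log2 changes of 0.27, 0.41 and 0.46, did not pass. Nor did Ccnd1, Igf1 and Esr1, at -1.04, -1.25 and -1.26. In GFP+ luminal cells 3 of 27 relatives passed, beside 5.96% of all genes. With Esr1 from the hormone list, the calls were Ano8 (a rise of 0.72), Ano6 (a fall of 0.46), Nectin1 (a fall of 0.76) and Esr1 (a fall of 2.30), with edgeR adjusted p between 0.0022 and 0.0094.

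Long genes as a group had no shift of their median with E+P in GFP+ stroma. The 452 tested genes with a span of at least 300 kb, which include Tenm4, Ano4, Cadm2 and Trpm3, had a median log2 change of -0.04 against 0.00 over all genes, and 8 of them (1.77%, against 0.231% of all genes) were called, the 4 members included. Elsewhere their medians with E+P were lower. They were -0.16 in tdTomato+ stroma, -0.09 in GFP+ luminal and -0.21 in tdTomato+ luminal cells, against -0.03, -0.03 and -0.05 over all genes. Of the long genes 0.664%, 8.89% and 22.5% were called there, against 0.124%, 5.95% and 14.1% of all genes with a span. The part of gene length in the members' changes was not tested. Between stroma and luminal cells long genes were higher in stroma, with a median of 1.08 over 476 genes against 0.02.

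Genes whose log2 CPM followed a member over the 14 stromal libraries were sought among 16428 genes, as a description, since these libraries share 4 groups and 7 mice. The 3 most like Tenm4 were Ncam1 (Pearson r = 0.953), Grk3 (0.953) and H2-DMa (0.934), and Ncam1, a neural cell adhesion molecule, had group means of 8.57 and 38.2 CPM in GFP+ and 114.3 and 149.8 CPM in tdTomato+ stroma without and with E+P. Nrk was followed by Adamts6 (0.944), Cd5l (0.931) and Ano4 (0.927), so that the genes most like Nrk included another member. Ano4 was followed by Pdgfd (0.937), Plekhg4 (0.932) and Col23a1 (0.928). For Cadm2 the nearest were Ngfr (0.878), Elk3 (0.852) and Cldn11 (0.851), and Ngfr, the p75 neurotrophin receptor, had group means of 6.63 and 235.5 CPM in GFP+ and 12.3 and 41.2 CPM in tdTomato+ stroma. Trpm3 was followed by Abi1 (0.898), Tgfbi (0.897) and Duox2 (0.885), and Tgfbi, an extracellular matrix protein, had group means of 309.2 and 70.8 CPM in GFP+ and 73.3 and 23.5 CPM in tdTomato+ stroma.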

How the data were processed

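RNA from sorted cells of individual mice was made into libraries from 2 ng with a stranded total RNA kit, after 15 PCR cycles, and sequenced in paired-end 75-base reads. RIN ran from 1 to 10 and fragmentation time was adapted to it. The authors aligned reads with STAR 2.5.2a to GRCm38.p5 and GENCODE and deposited raw counts per gene for 28 libraries. The GENCODE release and the strand setting of the counting are not given in the sources used here. Symbols and coordinates came from GENCODE M21, which held 50376 of the 50600 IDs, 45737 of them in the same version (Trpm3 in another).

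The members and all lists were chosen with earlier results of these data known. For the members, E+P in stroma, and both comparisons that use the stromal libraries, are therefore described, with fitted changes and no p, although a test had been planned for the latter. For genes of the lists the edgeR adjusted p is printed with E+P in stroma, as a description. Counts were fitted with the edgeR 4.0.16 quasi-likelihood test (R 4.3.3, TMM, filterByExpr) on the whole table, within the 14 libraries of a lineage or over all 28, with Benjamini-Hochberg adjustment over all genes tested and a threshold of 0.01, as in the study. Log2 CPM used a prior count of 2. Exact two-sided permutation tests compared 3 with 4 mice (smallest p 0.0286). The pipeline was tested on simulated data. Floors cover counting error only.

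All members were named, relatives where they passed the threshold (at most 4 per list with the largest change), and the 3 genes most like each member with at least 1 CPM in a stromal group. Libraries of 1 mouse share the animal, and same-mouse deviations from group means correlated at 0.0496 (mean r over 7 pairs) in stroma and 0.157 in luminal cells. Untreated and E+P mice share only numbers. Alternatives were DESeq2 size factors, library size alone, no low-count filter, DESeq2 1.42.0, limma-voom (limma 3.58.1), fits of the 2 groups compared, a replicate block and leaving out each mouse, and the luminal difference of E+P changes was added after the values were seen.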

Additional observations from a re-analysis of the deposited data

Results flagged for a closer look

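Cadm2 in untreated tdTomato+ stroma had 1 library, replicate 2, far below the other 3, at 0.181 CPM from 2 counts. In untreated GFP+ luminal cells the highest library, replicate 4, stood out at 0.0786 CPM, which is a single count against 0 in the others. Of 20 groups of 4 libraries examined, these 2 stood apart by Dixon's ratio of gap to range (critical value 0.829). The chance rate of that value, about 1 in 20 groups, assumes normally distributed values. It does not hold for counts this near 0, where a single count against 0 gives a ratio of 1.000 by itself. Nothing is read from these flags.

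With E+P, Nrk was higher in every GFP+ stroma library than in the untreated mice (log2 change 3.38). In tdTomato+ stroma it was lower in every E+P library (-1.42). Ano4 did likewise (2.49 and -3.87). The fitted value of -3.87 rests on 1 count in each E+P library, below the floor of 3 counts, so its size is not read. The difference between the stromal subsets was not tested, since the genes were chosen on these contrasts. Tenm4 was higher in every GFP+ luminal library (1.498) and lower in every tdTomato+ luminal library (-2.22). Tested after the values were seen, that difference had an edgeR adjusted p of 0.0101, above the threshold of 0.01.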

How the results depend on the processing

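Counts of members past the threshold changed least for GFP+ against tdTomato+ stroma and for stroma against luminal cells, which stayed within 1.5 times under all alternatives run. Of all genes 41.9% and 63.7% passed in these comparisons, and 0.231% and 0.124% with E+P in GFP+ and tdTomato+ stroma. All of these use the libraries that chose the genes, so nothing is read from their counts of members. In GFP+ stroma with E+P the count was 5, and 2 to 4 without 1 mouse. In tdTomato+ stroma it was 1, against 2 with no low-count filter, 3 with DESeq2, 0 with limma-voom, 0 with the 2 groups compared, 0 with the replicate block and 0 to 1 without 1 mouse. In GFP+ luminal cells it was 1, against 2 with DESeq2, 0 with limma-voom, 0 with 2 groups and 0 to 1 without 1 mouse. In tdTomato+ luminal cells it was 2, against 1 with no filter, limma-voom, 2 groups or the replicate block and 1 to 2 without 1 mouse. For GFP+ against tdTomato+ luminal cells it was 2, 1 with no filter and 0 to 3 without 1 mouse. The replicate block here joins different mice that share only a number in the E+P comparisons (mean r of their deviations -0.0149) and the libraries of 1 mouse in the others, where it changed no call.

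Over all genes, E+P in GFP+ stroma called 41, against 459 with no filter, 192 with DESeq2, 100 with limma-voom, 187 with 2 groups and 16 to 46 without 1 mouse. tdTomato+ stroma called 22, against 34 by library size, 840 with no filter, 384 with DESeq2, 8 with limma-voom, 0 with 2 groups, 45 with the replicate block and 1 to 85 without 1 mouse. GFP+ luminal cells called 985 against 2035 with DESeq2, 560 with 2 groups and 169 to 962 without 1 mouse, and tdTomato+ luminal cells 2327 against 3558 with DESeq2 and 1140 to 2144 without 1 mouse.

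Directions turned only for log2 changes near 0. Ano4 in GFP+ luminal cells (0.00) was -0.0033 with DESeq2 size factors, -0.091 by library size, -0.013 with DESeq2, -0.22 with the replicate block and -0.25 to 0.57 without 1 mouse. Ano4 in tdTomato+ luminal cells (-0.03) was 0.29 with limma-voom and -0.33 to 0.38 without 1 mouse, and its luminal difference (0.04) -0.18 to 0.19. Tenm4 in tdTomato+ stroma (0.14) was -0.032 with the replicate block and -0.18 to 0.29 without 1 mouse, Tenm4 between luminal subsets (0.31) -0.093 to 0.98 and Cadm2 between stromal subsets (0.09) -0.29 to 0.45. The cause of these changes was not tested. Cadm2 and Trpm3 could not be fitted in luminal cells for their low counts.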
